A study of Mus musculus with 6 samples.

Results

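The subject of this report is a set of 10 genes, out of 32285 measured, that are used as receptors and markers of tissue-resident macrophages: Lyve1, Timd4, Cd163, Vsig4, Mrc1, Mgl2, Retnla, Cd209f, Folr2 and Clec10a. They were taken by name, each as 1 row of 3 count matrices, and all 10 were found. Each matrix is 1 library of single cells from the left quadriceps of male wild-type C57BL/6 mice 2 to 3 months old. The critical library holds muscle 7 days after a 3 mm volumetric muscle loss injury, the subcritical library muscle 7 days after a 2 mm injury, and the uninjured library muscle with no injury, labelled with the same day. Cells of 4 animals per group were pooled, each animal marked by a hashtag antibody, and each pool was stained and sequenced as 1 library, so a difference between groups cannot be told apart from one between pools or libraries.

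Tissue-resident macrophages live in a tissue before injury and are kept up at least in part without new cells from blood. Wounds fill with macrophages that arise from blood monocytes. Many resident cells carry scavenger and sugar-binding receptors that take up dead cells, complexes and matrix fragments. Lyve1 binds hyaluronan and is also made by lymphatic endothelium. Timd4 encodes Tim-4, which binds phosphatidylserine on dying cells. Cd163 takes up haemoglobin bound to haptoglobin, and Vsig4 is a complement receptor. Mrc1 encodes the mannose receptor CD206, and Mgl2 and Clec10a encode the mouse lectins CD301b and CD301a, which bind galactose-type sugars. Cd209f is a mouse relative of DC-SIGN, Folr2 is a folate receptor, and Retnla is a secreted protein that mouse macrophages make in response to IL-4.

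After filtering, 2983 critical, 2746 subcritical and 2117 uninjured cells remained, with medians of 1591, 1278 and 1797 transcript counts (unique molecular identifiers, UMIs) per cell. Libraries shared 10 to 16 cell barcodes in each pair. Clusters 0, 2 and 3 were macrophage-like by markers that exclude the 10 genes, and the 10 genes took no part in the clustering. The macrophage-like class held 768 critical cells (25.7% of the library), 798 subcritical cells (29.1%) and 33 uninjured cells (1.56%). All 10 macrophage markers, among them Csf1r, C1qa and Adgre1, were found in at least 10% of these cells in each library. Ms4a7 was in 71.1% of critical, 72.8% of subcritical and 27.3% of uninjured macrophage-like cells. Fibroblast markers summed to 1012, 952 and 85.4 CPM (UMIs scaled to a fixed total) in critical, subcritical and uninjured macrophage-like cells, with 10, 10 and 4 of 10 such markers detected, Col1a1, Dcn and Pdgfra being at 0 in the uninjured ones. Endothelial markers summed to 135, 95.1 and 10.7 CPM, with 9, 9 and 1 of 9 detected and Pecam1 and Cdh5 at 0 in the uninjured ones. The part of these transcripts in the results was not tested.

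The stretches of genome just before the start of 5 of the genes are shown first, because these genes were among those lower in the wounds or, for Retnla, because its start region is known in mouse to respond to IL-4 through STAT6 and C/EBP. They are the 250 bases before the RefSeq start in build GRCm38.p6, read on the gene's own strand, 5′ to 3′. RefSeq start regions were matched for 8 of the 10 genes, all but Lyve1 and Clec10a. Capitals mark any of 4 motifs on either strand: GAGGAA for PU.1, TGCTGA for MAF, TTCNNNNGAA for STAT6 and TTGCNNAA for C/EBP. In the Retnla stretch the STAT6 and C/EBP matches are separated by a single base and appear as neighbouring runs of capitals.
Retnla, chr16:48842359-48842608, plus strand: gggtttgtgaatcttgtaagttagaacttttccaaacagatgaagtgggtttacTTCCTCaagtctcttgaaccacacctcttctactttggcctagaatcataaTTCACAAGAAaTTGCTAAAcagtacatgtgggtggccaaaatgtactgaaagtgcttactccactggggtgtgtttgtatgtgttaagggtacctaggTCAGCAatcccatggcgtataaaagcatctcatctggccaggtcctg
Mgl2, chr11:70130107-70130356, plus strand: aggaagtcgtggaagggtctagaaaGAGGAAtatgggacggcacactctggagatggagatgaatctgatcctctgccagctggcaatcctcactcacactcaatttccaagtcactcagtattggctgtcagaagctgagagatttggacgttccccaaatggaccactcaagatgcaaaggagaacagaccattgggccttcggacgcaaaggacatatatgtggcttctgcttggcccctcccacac
Cd163, chr6:124304401-124304650, plus strand: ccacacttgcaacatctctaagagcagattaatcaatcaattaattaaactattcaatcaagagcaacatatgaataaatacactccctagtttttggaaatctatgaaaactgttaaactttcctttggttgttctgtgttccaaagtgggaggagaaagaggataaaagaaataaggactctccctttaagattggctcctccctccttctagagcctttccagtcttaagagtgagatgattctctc
Timd4, chr11:46810549-46810798, plus strand: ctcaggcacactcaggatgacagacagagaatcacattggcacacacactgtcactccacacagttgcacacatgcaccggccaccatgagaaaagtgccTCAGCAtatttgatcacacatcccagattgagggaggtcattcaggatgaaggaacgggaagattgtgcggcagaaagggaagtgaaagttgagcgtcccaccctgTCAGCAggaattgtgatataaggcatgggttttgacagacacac
Vsig4, chrX:96293439-96293688, minus strand: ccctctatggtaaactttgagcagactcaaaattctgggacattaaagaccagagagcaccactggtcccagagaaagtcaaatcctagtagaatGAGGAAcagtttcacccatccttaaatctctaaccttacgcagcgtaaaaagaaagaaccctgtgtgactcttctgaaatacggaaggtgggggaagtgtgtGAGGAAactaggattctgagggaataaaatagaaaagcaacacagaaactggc

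The STAT6 motif was found in 1 of the 8 genes searched (Retnla) and in 5.85% of 32851 start regions, and the C/EBP motif in 1 of 8 (Retnla) and in 9.56% of them. PU.1 motifs were found in 4 of 8, which were Vsig4, Mrc1, Mgl2 and Retnla, against 23.3% of all start regions. MAF motifs were found in 3 of 8, which were Timd4, Retnla and Folr2, against 16.1%. These matches describe letters only. Of the 10 gene products, 4 were also read by barcoded antibodies, whose tags of 15 bases are given because they are what was counted.
CD206 (Mrc1) tag: tcaactcggtgttgc
CD163 (Cd163) tag: gagcaagattaagac
CD301b (Mgl2) tag: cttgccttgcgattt
Tim-4 (Timd4) tag: tgctggagggtattc

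In uninjured muscle the share of macrophage-like cells with a UMI ranged among the 10 genes, 3.03% for Cd209f being the lowest and 78.8% for Mrc1 the highest. In both wounds, Lyve1, Timd4, Cd163 and Vsig4 were found in under 2% of macrophage-like cells, while Mrc1 and Folr2 were found in over 20% of them. A UMI of Lyve1 was found in 5 of 768 critical (0.651%, 95% interval 0.212 to 1.51), 15 of 798 subcritical (1.88%, 1.06 to 3.08) and 17 of 33 uninjured cells (51.5%, 33.5 to 69.2). Timd4 was found in 0 of 768 critical cells, which allows a share of cells with a UMI, not of expressing cells, of up to 0.391%, in 3 of 798 subcritical cells (0.376%) and in 9 of 33 uninjured cells (27.3%, 13.3 to 45.5). Cd163 was found in 1.30% of critical, 1.38% of subcritical and 39.4% of uninjured macrophage-like cells. Vsig4 was found in 0 of 768 critical, 2 of 798 subcritical and 4 of 33 uninjured cells. All intervals are exact (Clopper-Pearson) and, like the limits for a count of 0 (3 counts), cover counting error only.

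The mannose receptor gene Mrc1 was found in 38.3% of critical, 27.3% of subcritical and 78.8% of uninjured macrophage-like cells. Folr2 was found in 25.8%, 24.3% and 51.5% of them, and Clec10a in 9.64%, 7.27% and 15.2%. Mgl2 was found in 4.04% of critical, 4.01% of subcritical and 48.5% of uninjured cells, and Retnla in 3.39%, 1.38% and 39.4%. Cd209f was rare, in 9 critical cells, no subcritical cell and 1 uninjured cell. Uninjured macrophage-like cells were deeper, with medians of 1362, 1140 and 1841 UMIs in critical, subcritical and uninjured cells. Each cell was therefore thinned to 731 UMIs, which left out 123 critical, 192 subcritical and 4 uninjured cells. At that depth Lyve1 was found in 2 of 645 critical, 8 of 606 subcritical and 9 of 29 uninjured cells, Cd163 in 4, 4 and 7 of them, and Mgl2 in 14, 11 and 11.

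**Figure D1:**
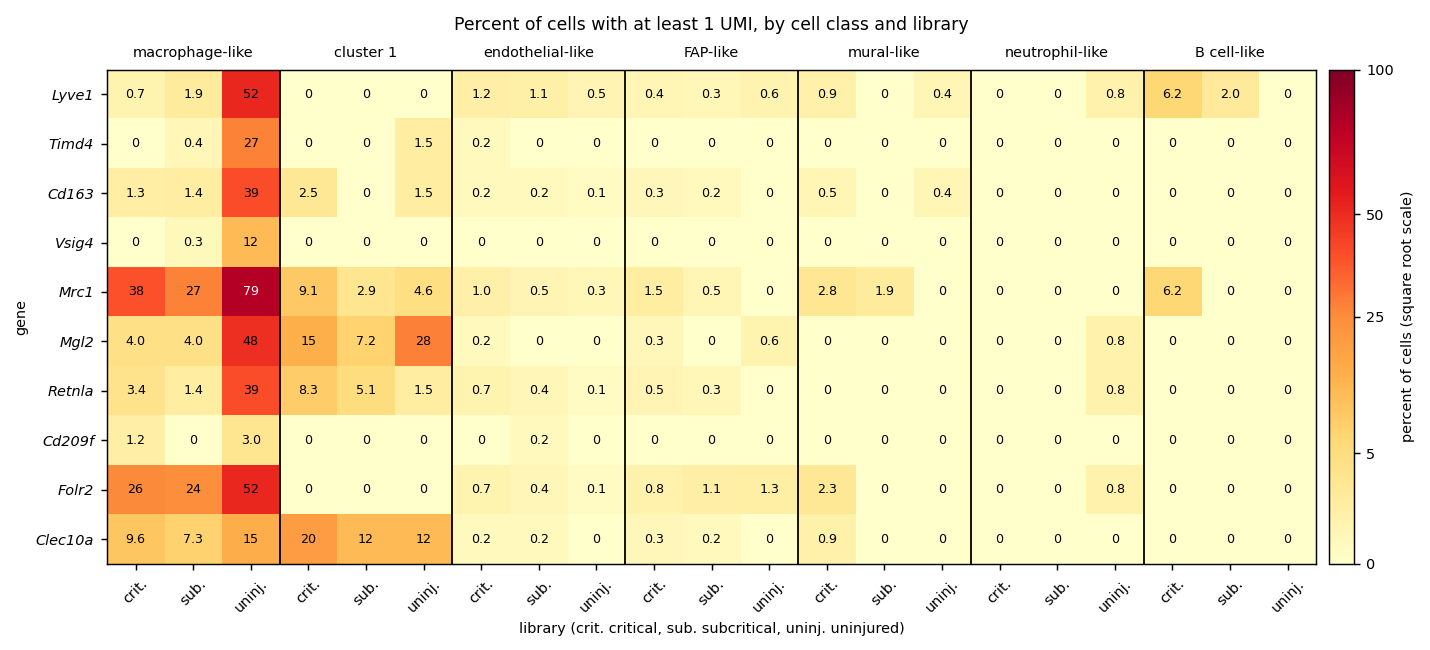
Percent of cells with at least 1 UMI of each gene (rows) in 7 cell classes, with the critical, subcritical and uninjured libraries side by side in each class (colour on a square root scale, value printed in each cell). The uninjured macrophage-like column holds the darkest cells, with Mrc1 at 78.8% and Lyve1 at 51.5%, and outside macrophage-like cells only Mgl2, Clec10a, Retnla and Mrc1 in cluster 1 and a single-cell share in critical B cell-like cells pass 5%.

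Because the macrophage-like class was much larger in the wounds, the same cells were also counted against all cells of a library. Cd163-positive macrophage-like cells were 0.335% of all critical cells (0.161 to 0.616), 0.401% of all subcritical cells (0.200 to 0.716) and 0.614% of all uninjured cells (0.327 to 1.05). Lyve1-positive ones were 0.168% (0.0544 to 0.391), 0.546% (0.306 to 0.899) and 0.803% (0.468 to 1.28). Mrc1-positive ones were 9.86% of critical, 7.94% of subcritical and 1.23% of uninjured cells. By this measure the Cd163 intervals of all 3 libraries overlap, the Lyve1 intervals of critical and uninjured muscle do not, and Mrc1-positive cells made up more of each wound library than of the uninjured library. These are shares of the cells captured in 1 library per group, with no replicate check.

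Levels were compared between animals by summing the UMIs of each animal's macrophage-like cells. Hashtags assigned 93.0% of critical, 94.0% of subcritical and 78.8% of uninjured macrophage-like cells to an animal. The 4 critical animals had 102 to 239 such cells, the 4 subcritical animals 152 to 262, and the 4 uninjured animals 3, 8, 9 and 6 cells with 17399 to 26693 UMIs. Counts were tested with edgeR's quasi-likelihood test across all genes that passed its filter on low counts, with Benjamini-Hochberg adjusted p under 0.05 as a call. Critical macrophage-like cells differed from uninjured ones in 247 of 4066 genes (6.07%), and subcritical ones in 220 of 4066 (5.41%). The filter was passed by 6 of the 10 genes, and of these 2, Cd163 and Mgl2, fell in each comparison and 0 rose. Cd163 did not pass it in the fit of the wounds alone, so it entered here through the uninjured animals, where it was high. A call other than lower was hardly open to it. The median log2 fold change of all genes was 0.25 in the critical and 0.24 in the subcritical comparison. Both comparisons share the same uninjured animals, and fewer transcripts per cell and fewer expressing cells cannot be told apart in such sums.

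Cd163, the haemoglobin scavenger, had 25.6, 15.8, 23.0 and 2.11 CPM in critical animals, 14.4, 18.03, 11.7 and 5.26 CPM in subcritical animals, and 184, 176, 225 and 287 CPM in uninjured animals. All uninjured animals lay above all injured animals. The uninjured values rest on 4, 4, 6 and 5 UMIs, where 3 counts amount to 112 to 172 CPM. A single UMI is 45.9 and 57.5 CPM in uninjured replicates 1 and 4, above every injured animal. An exact permutation of animals gave p = 0.0286, the smallest it can give, in each comparison. The share of all genes without overlap was not counted. The level fell by 3.65 ± 0.58 on the log2 scale in critical wounds (SE, edgeR adjusted p = 9.83e-07) and by 3.82 ± 0.60 in subcritical wounds (adjusted p = 7.69e-07). Within cluster 3 alone, with the 2 uninjured animals that had at least 3 such cells, the log2 changes were -2.24 (edgeR adjusted p = 0.031) and -2.40 (adjusted p = 0.0277).

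Mgl2, the CD301b lectin, had 70.5, 69.9, 34.5 and 6.33 CPM in critical animals, 67.2, 28.9, 39.1 and 47.3 CPM in subcritical animals, and 643, 1102, 562 and 402 CPM in uninjured animals. Here too the groups did not overlap. The uninjured values come from 14, 25, 15 and 7 UMIs, and the exact permutation again gave p = 0.0286 in each comparison. The log2 change was -3.79 ± 0.58 in critical wounds (edgeR adjusted p = 0.00169) and -3.61 ± 0.58 in subcritical wounds (adjusted p = 0.00246). Of the uninjured Mgl2 UMIs, 63.2% lay in 3 cells. Clec10a, which lies next to Mgl2 with no annotated gene between them, did not follow it. It had 141, 99.2, 57.6 and 48.5 CPM in critical animals, 115, 90.2, 39.1 and 60.5 CPM in subcritical animals and 0, 176, 262 and 0 CPM in uninjured animals, with log2 changes of -0.38 (edgeR adjusted p = 0.884) and -0.43 (adjusted p = 0.851). The difference between the Mgl2 and Clec10a changes was not tested.

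Mrc1 had 577, 354, 591 and 365 CPM in critical animals, 417, 310.2, 301 and 284 CPM in subcritical animals, and 184, 1058, 1499 and 1035 CPM in uninjured animals. The groups overlapped through the uninjured animal with 3 macrophage-like cells. Its log2 changes of -0.80 ± 0.35 in critical wounds (edgeR adjusted p = 0.232) and -1.24 ± 0.35 in subcritical wounds (adjusted p = 0.0514) were not called. A minimum of 5 such cells per animal leaves out only that uninjured animal, the one at 184 CPM. Without it the log2 changes were -1.07 (edgeR adjusted p = 0.000159) and -1.50 (adjusted p = 5.29e-08). Mrc1 was called lower in 5 of 22 alternative settings for critical and 10 of 22 for subcritical wounds, so its call depends on the setting. Folr2 had 179, 377, 365 and 293 CPM in critical animals, 331, 389.5, 294 and 247 CPM in subcritical animals, and 45.9, 969.5, 1386 and 57.5 CPM in uninjured animals. The uninjured animals lay on both sides of the injured ones, and the log2 changes were -0.85 (edgeR adjusted p = 0.554) and -0.78 (adjusted p = 0.597). The fit within cluster 3 alone again kept 2 uninjured animals, those at 969.5 and 1386 CPM, and lost those at 45.9 and 57.5 CPM. There the log2 changes of Folr2 were -1.72 (edgeR adjusted p = 1.02e-06) and -1.52 (adjusted p = 2.08e-05). It was the only 1 of 21 alternatives that called Folr2 in either comparison.

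Retnla, the IL-4-induced secreted protein, had 154, 598, 932 and 92.8 CPM in critical animals, 302, 36.1, 0 and 339 CPM in subcritical animals, and 11153, 88.1, 2997 and 2816 CPM in uninjured animals. Its log2 changes of -3.03 ± 1.18 (edgeR adjusted p = 0.215) and -4.35 ± 1.28 (adjusted p = 0.0899) were not called. A few cells carried most of its counts: 3 cells held 58.0% of 576 UMIs in critical, 73.8% of 202 UMIs in subcritical and 78.6% of 467 UMIs in uninjured macrophage-like cells. A single uninjured cell held 243 UMIs.

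**Figure D2:**
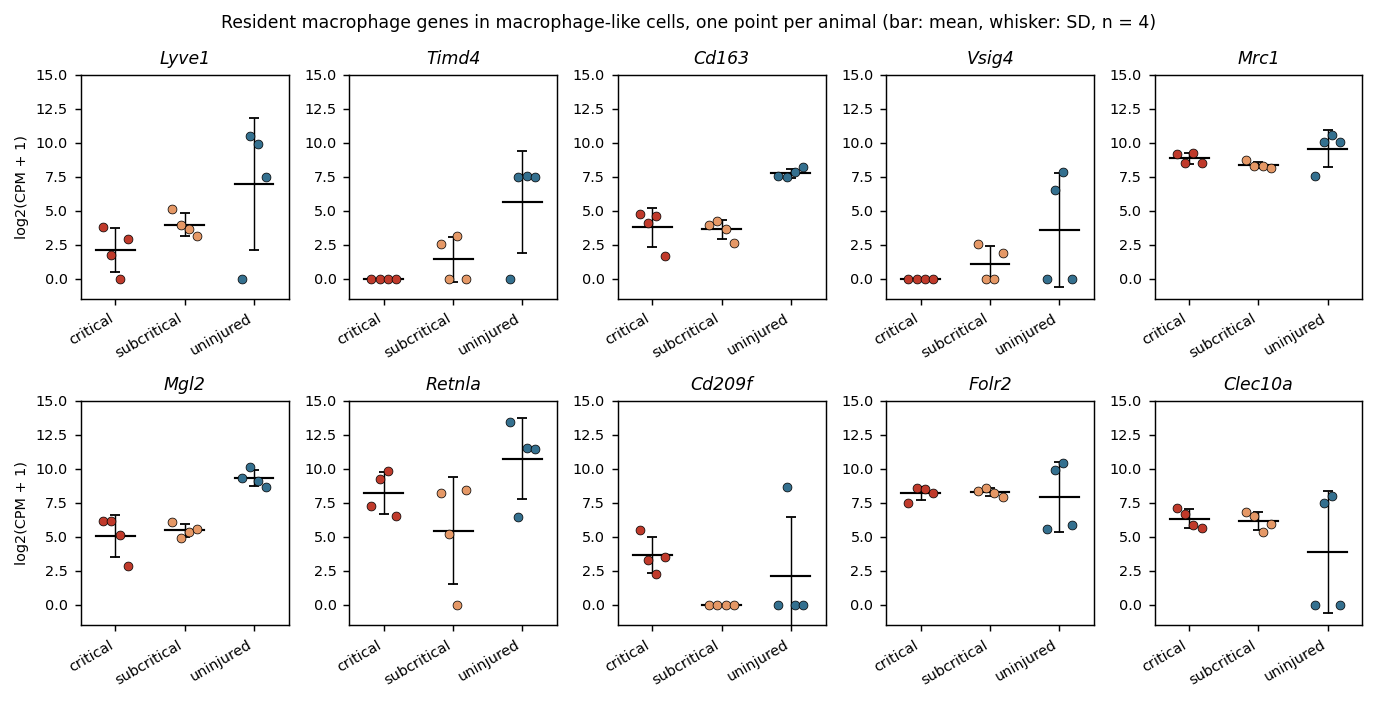
Level of each of the 10 genes in macrophage-like cells as log2(CPM + 1), with 1 point per animal, the mean as a bar and SD as a whisker, for critical, subcritical and uninjured animals (n = 4 each). Cd163 and Mgl2 points of uninjured animals all lie above those of injured animals, whereas Folr2 and Clec10a points of uninjured animals spread to both sides.

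Lyve1, Timd4, Vsig4 and Cd209f did not pass the filter on low counts. Lyve1 had 12.8, 2.26, 0 and 6.33 CPM in critical animals, 33.6, 14.4, 11.7 and 7.89 CPM in subcritical animals, and 0, 1454, 974 and 172 CPM in uninjured animals. The uninjured animals other than the one with 3 macrophage-like cells, which had no Lyve1 UMI, were above every injured animal. Timd4 had no UMI in critical animals, 4.80, 0, 7.83 and 0 CPM in subcritical animals, and 0, 176, 187 and 172 CPM in uninjured animals. Vsig4 had no UMI in critical animals, 4.80, 0, 0 and 2.63 CPM in subcritical animals and 0, 88.1, 225 and 0 CPM in uninjured animals.

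In a fit without that filter, 525 of 14331 genes (3.66%) differed in the critical and 574 (4.01%) in the subcritical comparison, with median log2 changes of 1.07 and 0.87 over all genes. In it, Lyve1 had log2 changes of -6.38 ± 0.81 in critical (edgeR adjusted p = 3.47e-05) and -4.65 ± 0.69 in subcritical wounds (adjusted p = 0.000229). Timd4 was called lower in both (edgeR adjusted p = 1.05e-08 and 1.45e-05), as was Vsig4 (adjusted p = 9.77e-06 and 0.000936). Cd209f was called lower in subcritical wounds (edgeR adjusted p = 2.4e-06) and not in critical wounds (log2 change -2.21, adjusted p = 0.0545), all 9 uninjured UMIs lying in 1 cell. These adjusted p-values rest on few counts and say little about the spread between animals. In an exact permutation of animals, whose smallest p is 0.0286, Lyve1 and Timd4 gave p = 0.143 and Vsig4 p = 0.429 in each comparison. Cd209f levels of injured and uninjured animals overlapped in both. Counted over whole libraries, Timd4 in macrophage-like cells had 0 UMIs in critical wounds and 14 UMIs in uninjured muscle. With 3 counts over the library's macrophage-like cells in place of the 0, it was 69.6-fold lower in critical wounds. That ratio takes the 14 UMIs as exact and is not a lower bound. In subcritical wounds Timd4 was 58.1-fold lower (counting interval 16.2 to 316, from 3 UMIs). Vsig4 was 49.7-fold lower in critical wounds by the measure with 3 counts in place of 0, again not a lower bound (0 UMIs, against 10 in uninjured muscle). A single uninjured cell held 6 of those 10 UMIs.

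Critical and subcritical macrophage-like cells differed in 42 of 3891 genes (1.08%), and 0 of the 5 genes tested were among them by edgeR. Of the 5, Mrc1 had an unadjusted p under 0.05 (0.0129), and DESeq2 called 0 of them. Mrc1 averaged 472 ± 130 CPM in critical and 328 ± 60.4 CPM in subcritical animals (SD, n = 4 each), a log2 difference of 0.45 ± 0.17 (edgeR adjusted p = 0.376). Folr2 averaged 303 ± 90.5 and 315 ± 60.2 CPM, a log2 difference of -0.05 ± 0.17 (adjusted p = 0.977). Without the filter on low counts, where 55 of 14268 genes (0.385%) were called, Cd209f was higher in critical wounds (edgeR adjusted p = 0.024). It had 44.9, 9.02, 3.84 and 10.5 CPM in critical animals and no UMI in any subcritical animal, from 17 UMIs in 9 critical cells. For the subcritical animals 3 counts amount to 14.4, 10.8, 11.7 and 7.89 CPM. Only critical replicate 1, with 7 UMIs, lay above all of these limits, and it is flagged below as far from the other critical animals. Lyve1 was not called (log2 difference -1.75 ± 0.69, edgeR adjusted p = 0.595).

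The 3 macrophage-like clusters differed in which of the genes they held, given here as a description because clusters were made from the same cells. Cluster 3 (302 critical, 245 subcritical and 22 uninjured cells) was led by Mrc1, Ccl8, F13a1 and Siglec1. Cluster 0 (297, 420 and 10 cells) was led by MHC class II genes and Cx3cr1, and cluster 2 (169, 133 and 1 cells) by Mmp12, Spp1 and Gpnmb, which mark scar-associated macrophages. Mrc1 was found in 53.6% of critical, 46.5% of subcritical and 77.3% of uninjured cells of cluster 3, and in 22.6%, 18.1% and 90.0% of cluster 0. Folr2, in the wounds, was at its highest share in cluster 2, in 44.4% of critical and 44.4% of subcritical cells, against 28.5% and 29.8% in cluster 3. Cluster 2 cells were the deepest, with medians of 2885 critical and 2645 subcritical UMIs against 1061 and 986 in cluster 3.

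Within cluster 3, where the libraries had more alike depths (medians of 1061, 986 and 1223 UMIs), Lyve1 was found in 5 of 302 critical, 13 of 245 subcritical and 16 of 22 uninjured cells. Timd4 was found in 0, 3 and 8 of these cells, and Cd163 in 9, 9 and 9. Mgl2 was found in 12 critical, 5 subcritical and 12 uninjured cells, and Clec10a in 48, 30 and 3. Among cells of this cluster Lyve1, Timd4, Cd163 and Mgl2 were at a lower share in both wounds, whereas Clec10a was in 15.9% of critical, 12.2% of subcritical and 13.6% of uninjured cells, the last resting on 3 cells. All 3 subcritical macrophage-like cells with Timd4 and all 5 critical ones with Lyve1 were in cluster 3.

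**Figure D3:**
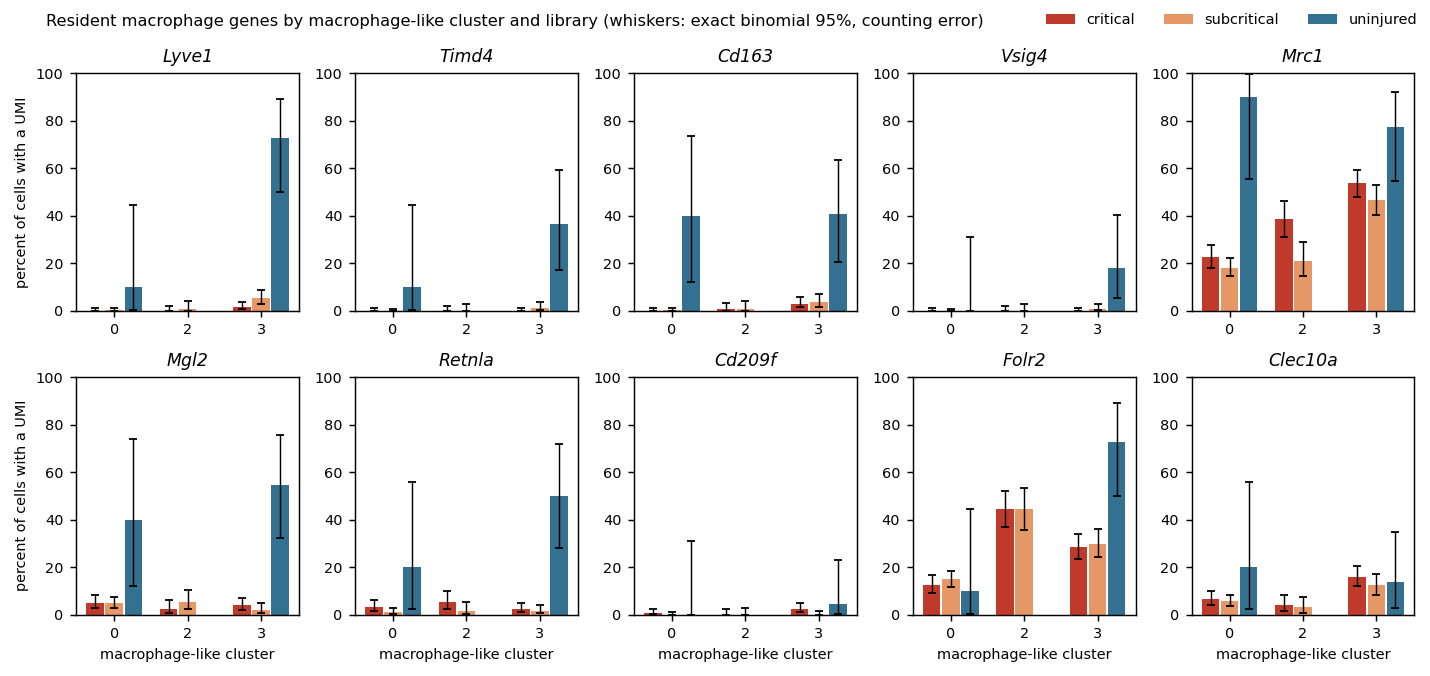
Percent of cells with a UMI of each gene in macrophage-like clusters 0, 2 and 3, for critical, subcritical and uninjured libraries, with exact binomial 95% whiskers that cover counting error only (the single uninjured cell of cluster 2 is not drawn). Lyve1, Timd4 and Vsig4 bars are tallest for uninjured cells of cluster 3, and Folr2 is highest in cluster 2 within each wound.

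Several of the genes could be found in the same cell. At 731 UMIs per cell, at least 3 of the 10 genes were found in 2.48% of critical cells (1.42 to 4.00), 2.31% of subcritical cells (1.27 to 3.85) and 48.3% of uninjured cells (29.4 to 67.5). At least 1 was found in 41.1%, 34.2% and 86.2% of them. All 9 uninjured cells with Timd4 also held Lyve1 and Mrc1, 8 of them held Folr2 and 5 held Cd163. All 4 uninjured cells with Vsig4 held Lyve1. Other pairs went the other way: Mrc1 was in 61.5% of uninjured cells with Retnla and 90% of those without, Cd163 in 25% of those with Vsig4 and 41.4% of those without, and Lyve1 in 40% of those with Clec10a and 53.6% of those without. In the wounds the rare Lyve1-positive cells also held other genes of the set: of 5 critical cells, 5 held Mrc1, 3 Cd163 and 3 Folr2, and of 15 subcritical cells, 9 held Mrc1, 4 Cd163, 11 Folr2 and 3 Timd4. Among macrophage-like cells without Lyve1, Cd163 was found in 0.917% of critical and 0.894% of subcritical cells.

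**Figure D4:**
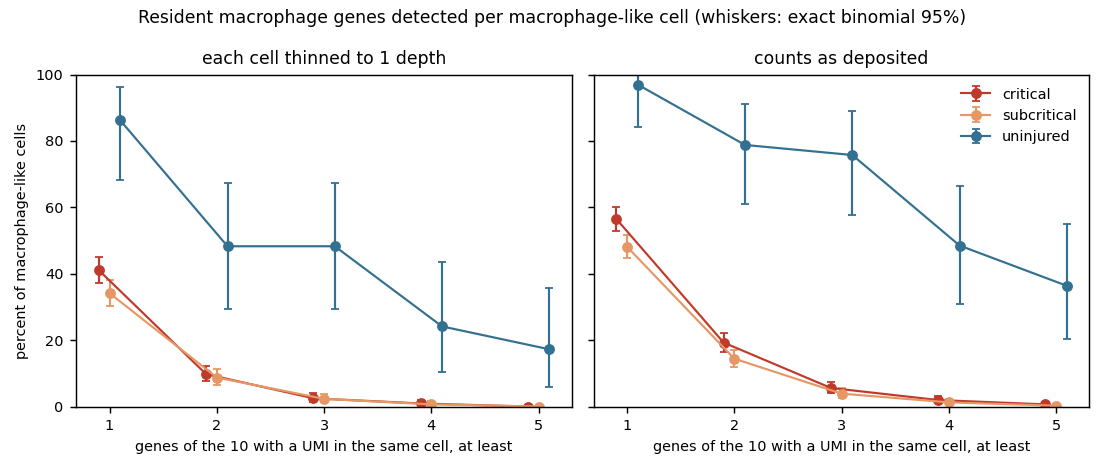
Percent of macrophage-like cells with UMIs of at least 1 to at least 5 of the 10 genes in the same cell, after thinning each cell to 731 UMIs (left) and with counts as deposited (right), with exact binomial 95% whiskers. The uninjured line lies above both wound lines throughout, with 48.3% of thinned uninjured cells holding at least 3 genes against 2.48% of critical and 2.31% of subcritical cells.

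Surface protein was read by antibody in the same cells. An edgeR fit of the 138 panel antibodies called 4 (2.9%) in critical and 6 (4.35%) in subcritical against uninjured macrophage-like cells. Of the 4 antibodies to these gene products, CD163 and Tim-4 fell in each comparison, and CD206 and CD301b were not called. CD163 reads were 11.4, 7.04, 8.59 and 7.30 per 10000 panel reads in critical animals, 10.0, 7.71, 8.09 and 6.35 in subcritical animals, and 0, 85.7, 57.5 and 54.1 in uninjured animals. The animal at 0 had 3 cells and 304 panel reads, and the other 3 uninjured animals lay above all injured ones. The log2 changes were -2.85 ± 0.39 (edgeR adjusted p = 0.000542) and -3.02 ± 0.39 (adjusted p = 0.000348). The uninjured values rest on 30 CD163 reads in all.

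Tim-4 reads were 22.2, 26.5, 28.9 and 35.7 per 10000 in critical animals, 21.6, 22.8, 22.5 and 19.8 in subcritical animals, and 32.9, 118, 92.1 and 54.1 in uninjured animals. The log2 changes were -1.57 ± 0.27 (edgeR adjusted p = 0.00299) and -2.05 ± 0.27 (adjusted p = 0.000348), and the first was lost without uninjured replicate 3 (adjusted p = 0.0611). The 3 isotype controls averaged 14.5 to 20.05 per 10000 in critical animals, 11.4 to 23.7 in subcritical animals and 13.8 to 23.2 in uninjured animals. Against these, CD163 reads in injured animals lay below the isotype averages of their group and Tim-4 reads lay above them in critical animals (22.2 to 35.7) and among them in subcritical animals (19.8 to 22.8).

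CD206 reads were 310 to 579 per 10000 in critical animals, 264 to 392 in subcritical animals and 296 to 1222 in uninjured animals, with log2 changes of -0.54 (edgeR adjusted p = 0.558) and -0.99 (adjusted p = 0.218). CD301b reads were 91.5 to 106, 97.6 to 120 and 98.7 to 139 per 10000, with log2 changes of -0.41 (edgeR adjusted p = 0.153) and -0.36 (adjusted p = 0.285), although Mgl2 transcripts fell. CD301b reads were no higher in macrophage-like cells than in endothelial-like cells, at 98.2 against 126 per 10000 in the critical, 107 against 123 in the subcritical and 127 against 163 in the uninjured library. Between critical and subcritical macrophage-like cells edgeR called 0 of 138 antibodies (0%), of which 17 had an unadjusted p under 0.05, Tim-4 among them (log2 difference 0.45 ± 0.11, adjusted p = 0.176).

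Antibody reads were also set beside the transcript cell by cell. CD163 reads were 115 per 10000 in critical cells with a Cd163 UMI (counting interval 67.0 to 184), 81.9 in such subcritical cells (45.8 to 135) and 96.4 in such uninjured cells (63.0 to 141). They were 6.60, 6.75 and 19.9 per 10000 in cells without one. Rare Cd163-positive cells of the wounds, 10 critical and 11 subcritical, thus carried CD163 reads in the same range as the 13 uninjured ones. CD206 reads were 536 per 10000 in critical, 410 in subcritical and 809 in uninjured cells with an Mrc1 UMI, against 326, 276 and 108 in cells without. Tim-4 reads were 216 per 10000 in uninjured cells with a Timd4 UMI (141 to 316) and 42.4 in those without (24.7 to 67.9). CD206 reads were higher in cluster 3 than in cluster 0 in 8 of 8 injured animals, and CD163 reads in 7 of 8. The same held for CD301b and Tim-4 reads in 5 of 8 each, and for the 3 isotype controls in 4 to 6 of 8.

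**Figure D5:**
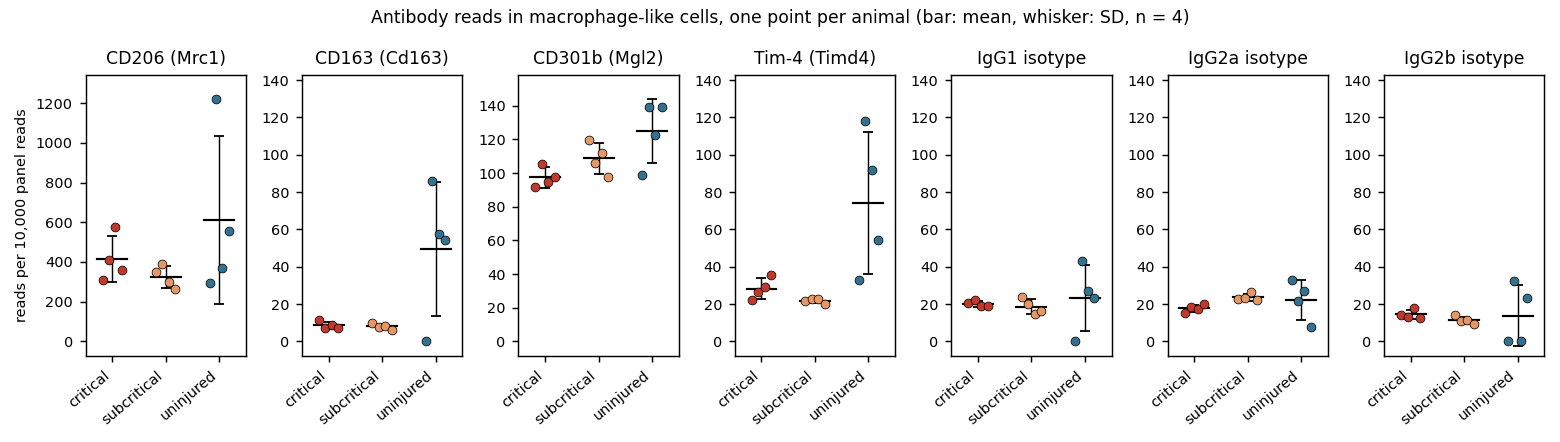
Antibody reads per 10000 panel reads in macrophage-like cells for CD206, CD163, CD301b, Tim-4 and 3 isotype controls, with 1 point per critical, subcritical and uninjured animal, the mean as a bar and SD as a whisker (n = 4 each, linear axes that differ between panels). CD163 lies at 6.35 to 11.4 in injured animals and at 54.1 to 85.7 in 3 of 4 uninjured animals, and Tim-4 lies at 19.8 to 35.7 in injured and 32.9 to 118 in uninjured animals.

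Outside macrophage-like cells, Lyve1 was found in endothelial-like cells: 7 of 602 critical, 6 of 560 subcritical and 7 of 1280 uninjured ones. These few cells held 70.4% of all Lyve1 UMIs in the critical library, 48.0% in the subcritical library and 44.8% in the uninjured library. Of them, 5 of 7 critical, 6 of 6 subcritical and 6 of 7 uninjured cells also held at least 2 of 7 lymphatic endothelial markers, such as Prox1, Flt4 and Mmrn1, which 0 of 595, 2 of 554 and 2 of 1273 other endothelial-like cells did. In macrophage-like cells the 7 lymphatic markers summed to 38.7 CPM in the critical, 40.3 CPM in the subcritical and 0 CPM in the uninjured library, with 4, 1 and 0 of 7 detected. Prox1, Mmrn1 and Nts were at 0 in all 3 libraries, and the part of the others in the Lyve1 values was not tested. Macrophage-like cells held 7.41% of Lyve1 UMIs in critical muscle, 36% in subcritical muscle and 49.7% in uninjured muscle.

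Mgl2, Clec10a and Retnla were also found in cluster 1, a mixture of monocyte-like, dendritic-like and other cells that took no name (121 critical, 138 subcritical and 65 uninjured cells). It held 40.2%, 32.5% and 29.4% of the Mgl2 UMIs of the critical, subcritical and uninjured libraries, and 25.6%, 22.5% and 63.6% of the Clec10a UMIs. Its subclusters 1.0 and 1.3 were led by Cd209a, a dendritic and monocyte lectin. In subcluster 1.3 Mgl2 was found in 7 of 31 critical, 9 of 41 subcritical and 3 of 6 uninjured cells, and Clec10a in 11, 12 and 4 of them. Subcluster 1.4, led by the granule genes Elane and Mpo, held Mgl2 in 11 of its 13 uninjured cells, whose median depth was 15958 UMIs. Folr2 had no UMI in cluster 1 in any library, which for critical cells allows a share of up to 2.48%. In fibroblast-like (FAP) cells, which should lack the genes, Mrc1 was found in 1.46%, 0.483% and 0% and Lyve1 in 0.397%, 0.322% and 0.633% of cells, at median depths of 2917, 2249 and 3847 UMIs. Cd163 was found in 0.265%, 0.161% and 0% of these fibroblast-like cells, and Timd4 and Vsig4 in none. In the critical library the Lyve1 share of macrophage-like cells (0.651%) was near that of fibroblast-like cells (0.397%), which were deeper. The 5 critical macrophage-like cells with Lyve1 were all in cluster 3 and all held Mrc1, and the part of free RNA in them was not tested. The Cd163 shares of macrophage-like cells in both wounds were higher than in fibroblast-like cells, at 1.30% against 0.265% in the critical and 1.38% against 0.161% in the subcritical library.

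Over all tagged cells of an animal, macrophages or not, 3 of the genes were higher in the wounds. Critical animals differed from uninjured ones in 2522 of 7005 genes (36%) and subcritical animals in 2449 (35%), and 3 of the 5 genes tested, Mrc1, Folr2 and Clec10a, rose in both. Mrc1 averaged 284 ± 65.3 CPM in critical, 202 ± 18.6 in subcritical and 52.1 ± 51.8 in uninjured animals (SD, n = 4 each), log2 changes of 2.74 ± 0.47 (edgeR adjusted p = 0.000692) and 2.33 ± 0.47 (adjusted p = 0.00242). Clec10a averaged 71.1 ± 25.6, 57.4 ± 15.2 and 11.4 ± 7.84 CPM, log2 changes of 2.77 and 2.59 (edgeR adjusted p = 2.74e-05 and 7.15e-05). Folr2 had log2 changes of 2.67 and 2.78 (edgeR adjusted p = 0.0142 and 0.0124). Mgl2 averaged 46.3, 41.5 and 52.3 CPM and was not called (edgeR adjusted p = 0.827 and 0.899), nor was Retnla (adjusted p = 0.792 and 0.342). Macrophage-like cells made up 60.5% of tagged critical, 61.0% of tagged subcritical and 2.66% of tagged uninjured cells, so these sums hold very different mixtures. Tagging also differed by class. Hashtags marked 93.0%, 94.0% and 78.8% of critical, subcritical and uninjured macrophage-like cells, but 7.54%, 5.48% and 6.33% of fibroblast-like cells. In the whole libraries macrophage-like cells were 25.7%, 29.1% and 1.56%, so the sums do not stand for all cells of an animal.

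Other genes tied to these were counted in lists, beside the 6.07% of all genes called in critical and 5.41% in subcritical against uninjured macrophage-like cells. Of 30 further resident macrophage genes, 23 were tested in macrophage-like cells, and 1 rose and 3 fell in critical wounds, 1 rose and 4 fell in subcritical wounds, with median log2 changes of -0.32 and -0.40 beside 0.25 and 0.24 over all genes. The leukotriene synthase Ltc4s averaged 21.5 CPM in critical, 47.6 in subcritical and 229 in uninjured animals (log2 changes -3.05 and -2.08, edgeR adjusted p = 3.09e-05 and 0.0029). The coagulation factor subunit F13a1 averaged 261, 184 and 1025 CPM (log2 changes -1.78 and -2.26, edgeR adjusted p = 0.0263 and 0.00827), and the IgG receptor Fcgrt fell too (-1.54 and -1.30, adjusted p = 0.000793 and 0.00531). The growth factor Igf1 rose, averaging 417, 478 and 118 CPM (log2 changes 2.01 and 2.25, edgeR adjusted p = 8.02e-05 and 4.71e-06). The eosinophil-attracting chemokine Ccl24 was called lower in subcritical wounds, at 16.0 CPM against 219 CPM in uninjured animals (log2 change -3.64, edgeR adjusted p = 0.0389).

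Of 22 genes known to respond to IL-4 and STAT6, 9 were tested, and 1 fell in critical and 2 fell in subcritical wounds, where 6.07% and 5.41% of all genes were called, so 1 call among 9 is close to the background. They were the chemokine Ccl9 in both (88.6, 63.6 and 414 CPM in critical, subcritical and uninjured animals, log2 changes -1.88 and -2.38, edgeR adjusted p = 0.00029 and 1.2e-05) and Ccl24 in subcritical wounds. Of 18 genes known to respond to IL-10 or glucocorticoid, 13 were tested and 1, the phosphatase Dusp1, rose in critical wounds (log2 change 1.38, edgeR adjusted p = 0.0296). Of 29 relatives of the 10 genes, 6 were tested and 1, the lectin Clec4n, rose in critical wounds, at 57.9 CPM against no UMI in uninjured animals (log2 change 6.73 ± 2.04, edgeR adjusted p = 0.0278). In a single uninjured animal 3 counts amount to 112 to 172 CPM, above that level, so the absence of a UMI says little. Of 19 monocyte-derived and inflammatory genes, 9 were tested and 1, the calcium-binding S100a4, fell in both wounds (218, 94.1 and 1895 CPM in critical, subcritical and uninjured animals, edgeR adjusted p = 0.00369 and 0.000583).

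Of 16 scar-associated macrophage genes, 16 were tested, and 9 rose and 0 fell in each comparison, beside 6.07% and 5.41% of all genes called in either direction, with median log2 changes of 1.99 and 2.19. This list was chosen with earlier results of these data known. Its genes Mmp12, Spp1 and Gpnmb lead cluster 2, which holds 1 uninjured cell, so the count is a description and no test of the list. Spp1, which encodes osteopontin, averaged 3771 CPM in critical, 3381 in subcritical and 11.02 in uninjured animals (log2 changes 8.56 and 8.46, edgeR adjusted p = 0.00203 and 0.00245). Apoe averaged 20231, 23446 and 4424 CPM (log2 changes 2.42 and 2.69, edgeR adjusted p = 0.000357 and 0.000137). Of 9 MHC class II genes, 7 were tested and 0 were called, with median log2 changes of -0.67 and -0.57. None of the 7 lists held a gene called between critical and subcritical wounds by edgeR.

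The genes whose levels were most like those of each of the 10 were sought over 19 clusters of all libraries, by Pearson correlation of log2(CPM + 1) among 12135 genes with at least 50 UMIs. The clusters share libraries and differ in depth, so r is a description. Mrc1 was most like Atp13a2 (r = 0.96), Ms4a6d (0.95) and Slc37a2 (0.94), and Folr2 was most like Pf4 (0.94), Gpr162 (0.94) and C1qb (0.92). Siglec1 was among the 3 nearest genes of Timd4 (0.80), Cd163 (0.86), Vsig4 (0.72) and Cd209f (0.84). Retnla was most like Lair1 (0.96), Mefv (0.96) and Gm46224 (0.96), Mgl2 most like Myo1g (0.94), Gm15964 (0.93) and Plcb2 (0.93), and Clec10a most like Havcr2 (0.93), F13a1 (0.91) and Ms4a6c (0.91). Lyve1 had the lowest top values, with Galnt1 (0.76), Kif3b (0.69) and Slx4ip (0.69).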

How the data were processed

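The deposited data are 3 matrices of raw UMI counts, made with Cell Ranger 6.0.2 per the file headers and holding genes, hashtags and panel antibodies. Build GRCm39 (mm39) and the tools bcl2fastq and Cell Ranger come from the submitters' processing notes. Libraries held 3161 critical, 3071 subcritical and 2195 uninjured barcodes with 7138662, 4954129 and 5681346 UMIs. Cells needed 200 genes, 500 UMIs and at most 20% mitochondrial UMIs. Cells with several hashtags (177, 158 and 77) were removed. Scrublet marked 3, 22 and 0 cells as doublets, too few to rely on, and none were removed on its calls. A negative binomial mixture with bounded parameters assigned hashtags, from 2 to 6 counts upward, and tagged 39.6%, 44.8% and 46.2% of cells.

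Cells were clustered with scanpy 1.11.5 (2000 variable genes less the 9 of the 10 genes among them, 30 components, Leiden resolution 0.8) and named by marker lists. A limit of 0.6 on a class's mean log2 fold and the handling of dividing cells were set after the clusters were seen. Animal sums were tested with edgeR 4.0.16 (TMM, filterByExpr, robust fit), animals having at least 20 macrophage-like cells between wounds and at least 3 against uninjured muscle. SE is the log2 change over the root of its F statistic. DESeq2 1.42.0 served as an alternative. The antibody fits against uninjured animals and the fits on cluster 3 alone were added after the data were seen. The fits were tested on simulated data. The 10 genes and all lists were chosen with earlier results of these data known. Genes named beside the 10 were at most 5 called per list and comparison by size of change, and the 3 most alike genes. Labels name animals by hashtag only, and p-values of the fits come from counts summed per animal, with the spread estimated partly across genes. For genes with few counts they say little about the spread of that gene between animals.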

Additional observations from a re-analysis of the deposited data

Results flagged for a closer look

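Among 34 groups of 4 animals with at least 10 counts, 2 held an animal far from the other 3 by Dixon's criterion, and chance gives about 1 in 20 groups. Critical replicate 1 had 44.9 CPM of Cd209f in macrophage-like cells, from 7 UMIs in 102 cells, against 3.84 to 10.5 CPM in the other critical animals. Uninjured replicate 1 had 0 CPM of Timd4, with 3 macrophage-like cells, against 172 to 187 CPM in the other uninjured animals.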

How the results depend on the processing

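Of 829 recomputed values over 78 results, 779 were counted as the same, 9 as weaker, 27 as stronger and 0 as reversed, and 14 shares of cells moved after thinning. For a gene, weaker or stronger means a call lost or gained. A change of sign was counted as reversed only where a fit made a call. Uncalled genes did change sign: log2 changes in critical against uninjured cells ran from -0.98 to 0.64 for Clec10a. Numbers of calls were the same within a set ratio, and shares of cells within their counting interval. Genes called between critical and subcritical macrophage-like cells numbered 42, and 14 within cluster 3 alone, a setting chosen after seeing the data. Against uninjured cells, the critical comparison called 247 genes, 525 without the filter on low counts and 54 with injured animals thinned to the uninjured depth. The subcritical comparison called 220, 574 without the filter, 71 thinned, 343 with hashtags called by a 70% share and 357 with at least 5 cells per animal. Leaving out each animal gave 28 to 50 genes between wounds, 198 to 361 for critical and 183 to 357 for subcritical against uninjured cells, the last without uninjured replicate 1. Over all tagged cells it gave 2160 to 2915 and 2208 to 2823 genes. Antibody calls ranged over 0 to 2 between wounds (2 without critical replicate 4), 2 to 7 for critical and 4 to 7 for subcritical against uninjured cells. Cd163 and Mgl2 transcripts had an adjusted p in 21 of the 22 alternatives of each comparison. Both were called lower in all 21, with the largest adjusted p at 0.031 and 0.0194. A call other than lower was hardly open to Cd163, so its 21 calls are no added support. The remaining alternative had the injured animals thinned to the uninjured depth, where neither gene passed the filter on low counts. Neither was therefore tested at matched depth. CD163 antibody was called in 13 of 13 in each. Mrc1 was called lower in 5 of 22 for critical and 10 of 22 for subcritical wounds, and Retnla in 0 and 2 of 22. Over all tagged cells Folr2 lost its call with the 70% share (adjusted p = 0.0798 and 0.08) and, for critical animals, without uninjured replicate 2 (0.0536), and Mrc1 for subcritical animals with the 70% share (0.0693). The causes were not tested. No paired analysis was possible because hashtag numbers do not pair animals across groups. The 33 uninjured macrophage-like cells limit each comparison with uninjured muscle.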
